A study of Homo sapiens with 12 samples.

Results

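Expression of 10 genes of the BCL2 family was followed across 6 lymphoma cell lines: the survival genes BCL2, BCL2L1, BCL2L2, MCL1 and BCL2A1, the pore-forming genes BAX and BAK1, and the BH3-only genes BCL2L11, BID and BIK. The genes were taken by symbol, and every probe set whose annotation gave exactly 1 symbol, that of a member, was used. This gave 22 of 22215 probe sets, for 10 of the 11963 genes with a named probe set. A further probe set named for BCL2L2 together with other genes was left out. The arrays were 12 Affymetrix HG-U133A chips, with 2 arrays for each of 6 untreated human lines. KM-H2, L1236 and L428 are lines of classical Hodgkin lymphoma. The labels class the other 3 as B-cell lymphoma cells: Namalwa, which derives from Burkitt lymphoma, and SU-DHL4 and SU-DHL6, which derive from diffuse large B-cell lymphoma. The arrays of the Hodgkin lines and Namalwa had been published before by the submitters, and those of the SU-DHL lines were new, so dataset and lymphoma type overlap in part. Each line is a single isolate of a tumour and stands for its type only as 1 of 3.

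Proteins of the BCL2 family decide whether the outer membrane of the mitochondrion is opened, the step that releases cytochrome c and starts the caspase cascade. The survival members hold the pore formers BAX and BAK1 in check, and the BH3-only members relay death signals by occupying the survival members or by activating BAX and BAK1 directly. In germinal-centre B cells BCL2 is normally kept low, and a translocation that joins BCL2 to the immunoglobulin heavy chain locus is common in follicular lymphoma and in germinal-centre diffuse large B-cell lymphoma. BCL2A1 and BCL2L1 are known targets of NF-kB, a transcription factor with constant activity in Hodgkin cells.

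Array quality bore on some of the values. Median log2 signal ran from 6.85 to 6.92 over the 12 arrays. Duplicate arrays of a line lay over 2-fold apart for 465 probe sets (2.09%) in SU-DHL6, against 17 to 122 probe sets in the other lines. On SU-DHL6 replicate 2 the GAPDH probe set at the 3' end exceeded the one at the 5' end by 0.47 in log2 signal, against -0.09 to 0.16 on the other arrays. The part of this in the values below was not tested. Differences between types of BCL2, BCL2L1, MCL1, BAX, BAK1, BID and BIK are also given without that array. Other values include it unless stated. The file holds no detection calls. Signals near the arrays' lower quartiles, which ran from 5.64 to 5.75, may be background alone, and folds that reach into this range may understate the difference. All levels are log2 RMA signals, and levels of different probe sets are not compared with each other. The defining markers separated the types. All 5 measured B-cell markers had every Hodgkin line below every B-cell line, and all 5 Hodgkin markers had every Hodgkin line above. For PAX5 the gap was narrow, with L1236 at 9.66 against 9.81 in SU-DHL4, while KM-H2 was at 5.88 and L428 at 5.83. Line means did not overlap for 22.6% of all probe sets. By the limma test between types, 3 of the B-cell markers and 1 of the Hodgkin markers passed. Of the 22 measured markers of T and NK, myeloid, stromal, endothelial and epithelial cells, 0 passed the limma test between types and 1 had an unadjusted p under 0.05. Their line means were separate for 1 T and NK marker above and 1 below, and for 1 myeloid marker above. The same held for 1 stromal, endothelial or epithelial marker above and 1 below.

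The limma calls among these genes lay between single lines, and none lay between the lymphoma types, although the 2 tests rest on different spreads, that of duplicate arrays and that of lines. BCL2A1 was highest in KM-H2 and at or below the arrays' lower quartile in L1236, whereas BCL2L1 was highest in L1236 and lowest among the Hodgkin lines in KM-H2. BID was higher in L1236 than in the other Hodgkin lines. BIK was highest in Namalwa, which did not differ from SU-DHL6 beyond the spread between duplicates. Between types, the representative line means did not overlap for 6 genes, where 22.6% of all probe sets did not: BCL2, BCL2L1 and BCL2L2 lay higher in every Hodgkin line than in any B-cell line, and MCL1, BID and BIK lower. The single arrays of the types overlapped for BCL2, BCL2L1 and BID. For BCL2 the gap was only that between 7.012 in KM-H2 and 7.010 in SU-DHL4, and without SU-DHL6 replicate 2 the line means overlapped, since SU-DHL6 replicate 1 read 7.25. The BCL2L1 line means also overlapped without that array, with SU-DHL6 replicate 1 at 8.35 against a mean of 8.19 in KM-H2. None of these 6 differences passed the test over line means after adjustment for all probe sets.

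The windows before the transcription start are shown for the genes with the widest span between lines that had an entry in the sequence table, BCL2A1, BCL2L1 and BID. A window was found for 7 of the 10 genes, and not for BCL2L2, MCL1 or BIK. Each is the 250 bases before the outermost start of the gene on build GRCh38.p14, from RefSeq, on the minus strand and written 5′ to 3′. Capitals mark matches on either strand to a loose form of the NF-kB motif, which is 3 G, any 5 bases and 2 C, to TTCNNNGAA, the STAT motif, or to TGANTCA, the AP-1 motif. The BCL2A1 window is chr15:79971197-79971446, the BCL2L1 window chr20:31723964-31724213 and the BID window chr22:17774666-17774915.
BCL2A1: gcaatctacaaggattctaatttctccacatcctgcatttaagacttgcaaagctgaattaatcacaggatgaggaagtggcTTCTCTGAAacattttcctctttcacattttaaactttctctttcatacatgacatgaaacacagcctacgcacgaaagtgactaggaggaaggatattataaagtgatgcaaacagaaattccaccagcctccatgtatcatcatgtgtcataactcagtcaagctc
BCL2L1: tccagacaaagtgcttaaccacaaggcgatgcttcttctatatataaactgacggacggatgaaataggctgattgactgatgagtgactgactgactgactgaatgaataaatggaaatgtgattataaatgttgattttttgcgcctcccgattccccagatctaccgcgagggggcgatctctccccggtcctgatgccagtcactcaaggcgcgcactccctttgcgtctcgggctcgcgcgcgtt
BID: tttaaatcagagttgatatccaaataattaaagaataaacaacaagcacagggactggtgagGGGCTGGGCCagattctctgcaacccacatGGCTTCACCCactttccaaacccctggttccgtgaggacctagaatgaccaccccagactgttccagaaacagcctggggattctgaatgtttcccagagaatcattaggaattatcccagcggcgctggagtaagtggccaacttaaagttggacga
The BCL2A1 window holds 1 STAT match, from 168 to 160 bases before the start. The BID window holds 2 matches to the loose NF-kB form, and the windows of 4 further BID starts, which overlap in part, hold 3 to 5. The BCL2L1 window holds 0 matches to the 3 motifs, and the window of a further BCL2L1 start also holds 0. Of 34943 such windows in the table, 54.4% hold the loose NF-kB form, 6.56% the STAT motif and 6.59% the AP-1 motif. A match describes these letters only, and nothing was measured on these windows.

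BCL2A1, an inhibitor that binds BH3-only proteins and is short-lived, had the second widest span among the representative probe sets, 3.91 in log2 signal between line means. In KM-H2 it read 9.55 and 8.82 on the duplicate arrays. L428 read 7.26 and 7.13, and L1236 read 5.36 and 5.19, at or below the lower quartile. Among the B-cell lines, Namalwa read 7.14 and 6.71, SU-DHL4 5.62 and 5.22, and SU-DHL6 5.50 and 5.69. KM-H2 was therefore high, L428 and Namalwa intermediate, and L1236 lay with the SU-DHL lines near or below the arrays' lower quartiles. In the order of levels, KM-H2 differed from L428 (log2 difference 1.99 ± 0.24 SE, adjusted p = 0.000194) and Namalwa from SU-DHL6 (1.33 ± 0.24, adjusted p = 0.00372). L428 and Namalwa did not differ beyond the spread between duplicates (0.27, adjusted p = 0.524), nor did SU-DHL6, SU-DHL4 and L1236 from their neighbours (adjusted p = 0.689 and 0.725). KM-H2 exceeded L1236 by 3.91 ± 0.24, a 15.1-fold difference (adjusted p = 1.57e-06) that the low level in L1236 may understate.

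BCL2L1, which encodes the survival protein BCL-XL, had the reverse arrangement among these Hodgkin lines. Its representative probe set read 9.71 and 9.88 in L1236, 9.04 and 9.13 in L428, and 8.25 and 8.13 in KM-H2. The B-cell lines read 7.71 and 8.07 in Namalwa, 7.85 and 7.10 in SU-DHL4, and 8.35 and 7.75 in SU-DHL6. The KM-H2 arrays thus fell within the range of SU-DHL6, and the L1236 and L428 arrays lay above every B-cell array. L428 and KM-H2 differed as neighbours in the order (0.89 ± 0.25, adjusted p = 0.0278), while L1236 and L428 did not pass (0.71 ± 0.25, adjusted p = 0.0799). KM-H2 and the 3 B-cell lines did not differ from their neighbours (adjusted p = 0.406 to 0.77). The other 2 BCL2L1 probe sets followed the same order of Hodgkin lines more steeply, with line means of 9.88 in L1236, 8.67 in L428 and 7.45 in KM-H2 for 215037_s_at. For 206665_s_at the means were 8.43 in L1236, 7.34 in L428 and 5.95 in KM-H2. L1236 and L428 did differ as neighbours on 215037_s_at (1.21 ± 0.22, adjusted p = 0.00327) and on 206665_s_at (1.09 ± 0.34, adjusted p = 0.0472). Pearson's r between probe sets over the 6 line means was 0.965 to 0.993, as a description.

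**Figure D1:**
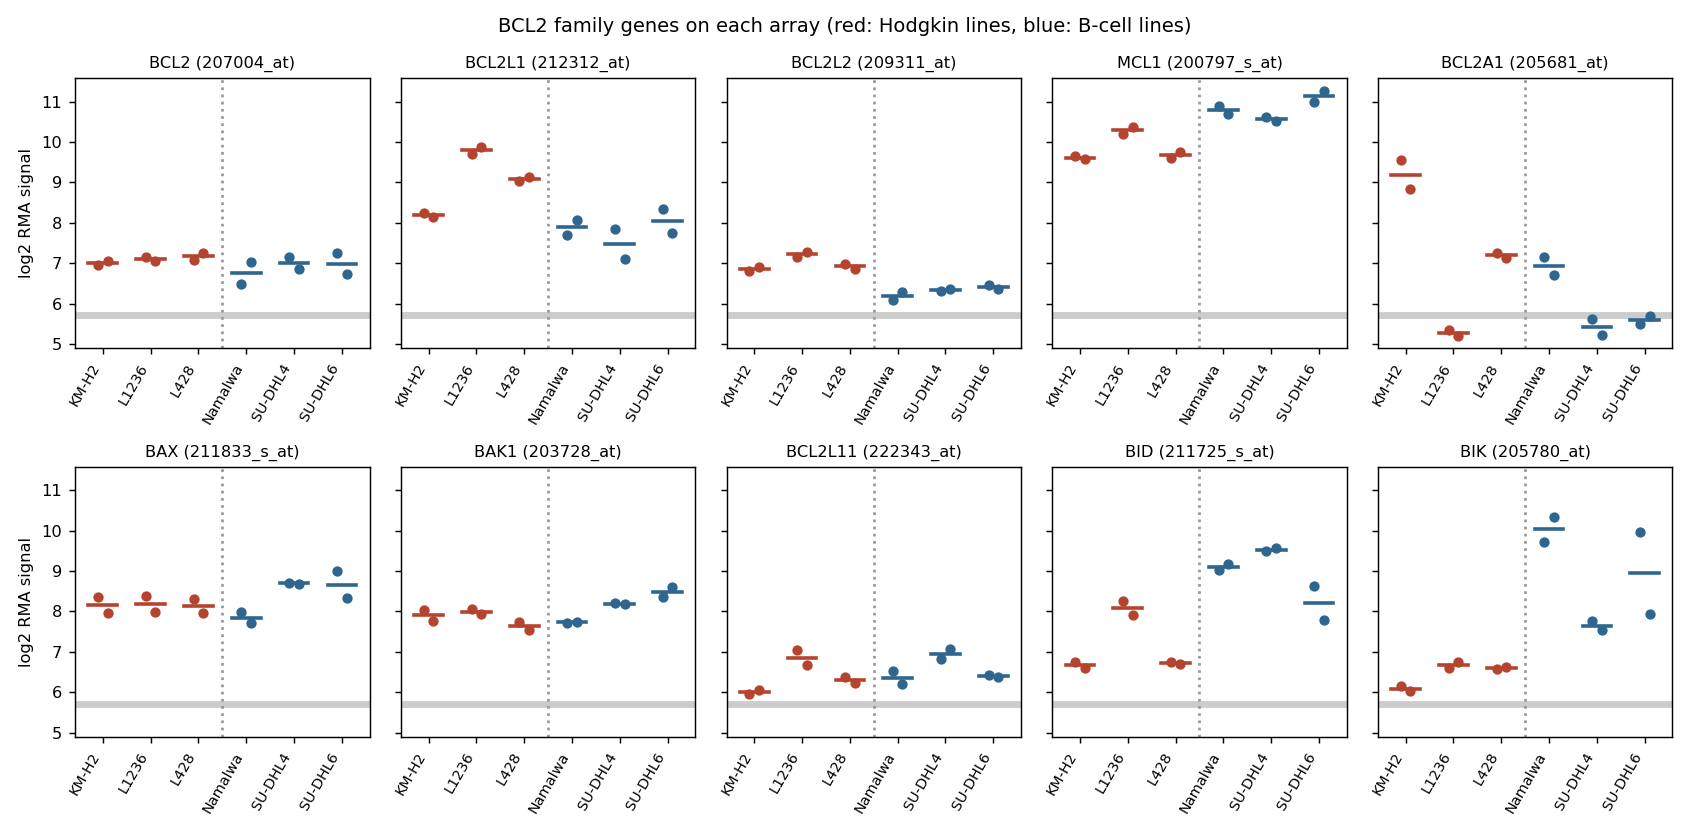
Log2 RMA signal of the representative probe set of each gene (y axis) on the 2 arrays of each line (points), with the line mean as a bar, Hodgkin lines in red and B-cell lines in blue. The grey band is the range of the arrays' lower quartiles, 5.64 to 5.75. BCL2A1 is at 9.19 in KM-H2 and 5.27 in L1236, and the 2 SU-DHL6 arrays of BIK lie at 9.98 and 7.93.

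When all 12 arrays entered a single fit and each line was compared with the 2 remaining lines of its own type, a gene was called where the adjusted p was under 0.05 and the lines differed by 1 or more in log2 signal. The labels do not say whether duplicates came from separate cultures, so these p-values rest on a spread that may be only technical. KM-H2 had 1 of 10 member genes higher and 1 lower, where 3.61% of all probe sets were higher and 3.41% lower. BCL2A1 was 7.74-fold higher in KM-H2, at 9.19 against 6.23 in L1236 and L428 (2.95 ± 0.20 SE, adjusted p = 4.75e-06). BCL2L1 was 2.38-fold lower in KM-H2, at 8.19 against 9.44 (-1.25 ± 0.22, adjusted p = 0.00186). L1236 had 2 genes higher and 1 lower, where 3.3% of all probe sets were higher and 3.07% lower. In L1236 BCL2A1 was 7.56-fold lower, at 5.27 against 8.19 in KM-H2 and L428 (-2.92 ± 0.20, adjusted p = 4.82e-06). BCL2L1 was 2.23-fold higher in L1236 (1.16 ± 0.22, adjusted p = 0.00333). BID, the BH3-only protein that caspase cleavage turns into an activator of BAX and BAK1, was 2.62-fold higher in L1236, at 8.09 against 6.69 (1.39 ± 0.20, adjusted p = 0.000568). These comparisons share lines, so the KM-H2 and L1236 values are not independent of each other.

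Below the size limit, L1236 also had the highest level among the Hodgkin lines of MCL1 (0.64 ± 0.11, adjusted p = 0.00173) and of BCL2L11, which encodes the BH3-only activator BIM (0.70 ± 0.13, adjusted p = 0.00309). A second MCL1 probe set, 200798_x_at, did pass the size limit in L1236, at 10.02 against 8.86 in KM-H2 and L428 (1.17 ± 0.18, adjusted p = 0.00112). It was also called lower in KM-H2, at 8.56 against 9.59 (-1.02 ± 0.18, adjusted p = 0.00221). With single arrays left out, the KM-H2 difference ran from -1.06 to -0.99. The suffix of this probe set marks possible cross-hybridisation. For L428, 0 of the 10 genes were called by limma, 3 had an unadjusted p under 0.05, and 2.91% of all probe sets were higher and 2.7% lower. For BIK, BAX and BCL2 the representative probe sets were called in none of the Hodgkin lines, whereas another BCL2 probe set, described further on, was called in L1236 and L428. The largest differences of the representative probe sets were -0.55 for BIK in KM-H2 (95% interval -1.52 to 0.42), 0.05 for BAX in L1236 (-0.42 to 0.51) and -0.13 for BCL2 in KM-H2 (-0.53 to 0.27).

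Among the B-cell lines, Namalwa had 2 genes higher and 0 lower, where 1.92% of all probe sets were higher and 1.58% lower. Namalwa is the only B-cell line of the published dataset, so line and dataset cannot be told apart in this comparison. BCL2A1 was 2.67-fold higher in Namalwa, at 6.93 against 5.51 in the SU-DHL lines (1.42 ± 0.20, adjusted p = 0.00123). BIK, a BH3-only protein of the endoplasmic reticulum, was 3.33-fold higher in Namalwa (1.73 ± 0.43, adjusted p = 0.0229). As pairs, Namalwa exceeded SU-DHL4 by 2.39 ± 0.50 (adjusted p = 0.0106). Its difference from SU-DHL6, 1.08 ± 0.50, did not pass (adjusted p = 0.195). In SU-DHL4, 0 genes were higher and 1 lower (1.88% and 1.57% of all probe sets), namely BIK, at 7.64 against 9.49 (-1.85 ± 0.43, adjusted p = 0.018). The second BID probe set, 204493_at, was 2.47-fold higher in SU-DHL4, at 8.15 against 6.84 (1.31 ± 0.15, adjusted p = 0.000306), while the representative one was below the size limit (0.88, adjusted p = 0.0143). In SU-DHL6, 0 genes were higher and 1 lower (1.61% and 2.4% of all probe sets), namely BID, at 8.20 against 9.32 (-1.12 ± 0.20, adjusted p = 0.00339).

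The BIK calls and the representative BID call in SU-DHL6 changed when single arrays were left out. BIK read 9.98 on SU-DHL6 replicate 1 and 7.93 on replicate 2, the widest gap between duplicates among the members. Replicate 1 alone lay close to the Namalwa mean of 10.03. Without SU-DHL6 replicate 2, BIK kept both calls, with log2 differences of 1.22 in Namalwa (adjusted p = 0.00097) and -2.36 in SU-DHL4 (adjusted p = 2.49e-05). Without Namalwa replicate 1, Namalwa replicate 2 or SU-DHL4 replicate 2, the BIK difference in Namalwa was 2.05, 1.42 and 1.68, against 1.73 with all arrays, and no longer passed (adjusted p = 0.0646, 0.184 and 0.0588). Without Namalwa replicate 2, SU-DHL4 replicate 1 or SU-DHL4 replicate 2, the BIK difference in SU-DHL4 was -1.69, -1.96 and -1.74, against -1.85 with all arrays, and no longer passed (adjusted p = 0.0555, 0.0739 and 0.137). BID in SU-DHL6 fell below the size limit without replicate 2 (-0.70, adjusted p = 0.00759). The second BID probe set, 204493_at, kept its SU-DHL6 call without that array (-1.04, adjusted p = 0.00375).

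**Figure D2:**
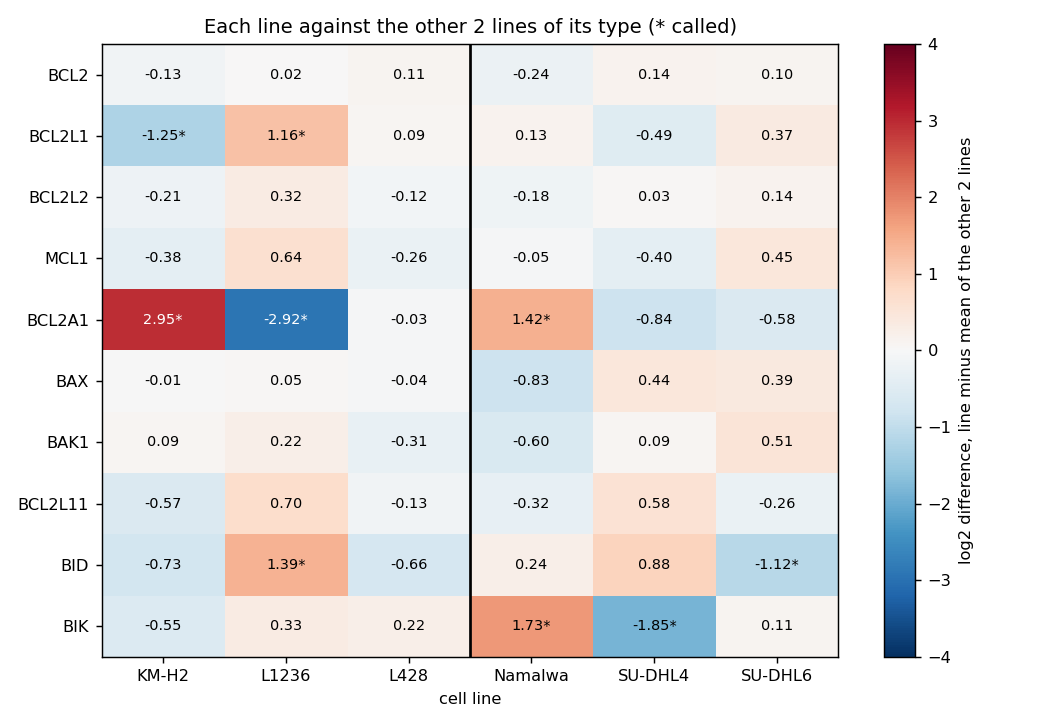
Log2 difference of each line (columns) from the 2 remaining lines of its own type, for the representative probe set of each gene (rows), on a colour scale from lower (blue) to higher (red). Stars mark calls by limma with a difference of at least 1. BCL2A1 has the largest values, 2.95 in KM-H2 and -2.92 in L1236.

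To compare the lymphoma types, duplicate arrays were averaged, and the 3 Hodgkin line means were tested against the 3 B-cell ones. At an adjusted p under 0.05, 0 of the 10 member genes and 0 of their 22 probe sets passed limma's test, where 0.441% of all probe sets were higher and 0.788% lower, 1.23% in all. At an unadjusted p under 0.05 there were 5 of the 10 genes and 6 of the 22 probe sets, where 14.4% of all probe sets reached that level. Hodgkin and B-cell line means were fully separate for 6 of the 10 genes and 8 of the 22 probe sets, where 22.6% of all probe sets were so (10.6% with the Hodgkin lines above and 12.1% below). Of these genes, BCL2 and BCL2L1 were no longer separate once SU-DHL6 replicate 2 was left out. The median difference of the 10 genes was -0.21, beside 0.00 over all genes. The genes were chosen with earlier results of these data known, so these counts describe the genes and test nothing.

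BCL2L2, the survival gene for BCL-W, had the smallest p of the members. It read 6.82 and 6.91 in KM-H2, 7.16 and 7.28 in L1236, and 6.99 and 6.86 in L428. It read 6.10 and 6.29 in Namalwa, 6.31 and 6.36 in SU-DHL4, and 6.45 and 6.36 in SU-DHL6. All 6 Hodgkin arrays lay above all 6 B-cell arrays, at a mean of 7.003 ± 0.188 against 6.312 ± 0.108 (SD, n = 3 lines each). The difference was 0.69 ± 0.12 SE, 1.61-fold, with an adjusted p of 0.0827. BCL2L1 averaged 9.02 ± 0.80 in Hodgkin and 7.80 ± 0.30 in B-cell lines (1.22 ± 0.43, 95% interval 0.13 to 2.31, adjusted p = 0.3). Its other probe sets differed by 1.46 (adjusted p = 0.375) and 1.60 (adjusted p = 0.341), and for 215037_s_at KM-H2 lay within the B-cell range. With SU-DHL6 replicate 2 left out, the representative difference was 1.12 (adjusted p = 0.386), and those of the other probe sets were 1.36 and 1.41. SU-DHL6 then lay above KM-H2 on the representative probe set, at 8.35 against 8.19, and on 206665_s_at, at 6.13 against 5.95.

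MCL1, a survival gene on which germinal-centre and plasma cells depend, lay lower in the Hodgkin lines. It read 9.64 and 9.57 in KM-H2, 10.20 and 10.38 in L1236, and 9.61 and 9.76 in L428. It read 10.90 and 10.69 in Namalwa, 10.61 and 10.51 in SU-DHL4, and 10.99 and 11.27 in SU-DHL6. The types did not overlap on any array, at 9.86 ± 0.37 against 10.83 ± 0.29 (difference -0.97 ± 0.24, 1.96-fold, adjusted p = 0.171). Without SU-DHL6 replicate 2 the difference was -0.92 (adjusted p = 0.166). The other 4 MCL1 probe sets had differences of -0.73 to -0.18, and -0.99 to -0.15 without that array, and 214056_at and 214057_at had line means near the lower quartile, between 5.39 and 5.97. The probe sets did not agree on L1236: on 200798_x_at it read 10.1 and 9.96, and its mean lay above that of SU-DHL6, which read 10.15 and 9.33. Without SU-DHL6 replicate 2, the L1236 mean of 10.022 on this probe set lay just below the lowest B-cell mean, 10.027 in SU-DHL4. On 200796_s_at L1236 had a mean of 7.75, above the 7.42 of SU-DHL6, whose arrays read 8.25 and 6.59. On 214056_at, near the lower quartile, L1236 had the highest mean of all lines, 5.97 against 5.93 in Namalwa. In the order of MCL1 levels only L1236 and L428 differed as neighbours (0.60 ± 0.12, adjusted p = 0.00661).

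BID lay lower in the Hodgkin lines, with L1236 closest to the B-cell lines. It read 6.74 and 6.60 in KM-H2, 8.25 and 7.92 in L1236, and 6.75 and 6.69 in L428. It read 9.03 and 9.17 in Namalwa, 9.48 and 9.57 in SU-DHL4, and 8.62 and 7.78 in SU-DHL6. The L1236 and SU-DHL6 arrays overlapped, and SU-DHL6 exceeded L1236 by 0.11 (adjusted p = 0.79). SU-DHL6 replicate 1 alone, at 8.62, lay above both L1236 arrays. The type means were 7.16 ± 0.80 against 8.94 ± 0.68 (difference -1.79 ± 0.53, 3.45-fold, adjusted p = 0.229). Without SU-DHL6 replicate 2 the difference was -1.93 (adjusted p = 0.166). The second BID probe set differed by -1.29 (adjusted p = 0.357), and by -1.35 without that array (adjusted p = 0.337), with L1236 at 6.80 and 6.60 against 6.64 and 6.31 in SU-DHL6. KM-H2 was 7.25-fold and L428 7.02-fold lower than SU-DHL4 (adjusted p = 9.04e-06 and 1.07e-05).

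BIK had the largest difference between types of the 10 genes. It read 6.15 and 6.02 in KM-H2, 6.60 and 6.74 in L1236, and 6.58 and 6.62 in L428. It read 9.72 and 10.35 in Namalwa, 7.76 and 7.53 in SU-DHL4, and 9.98 and 7.93 in SU-DHL6. All Hodgkin arrays were below all B-cell arrays, at 6.45 ± 0.32 against 8.88 ± 1.20 (difference -2.43 ± 0.62, 5.37-fold, adjusted p = 0.18). Without SU-DHL6 replicate 2 the difference was -2.77 (adjusted p = 0.181). Each Hodgkin line differed from Namalwa, with KM-H2 15.5-fold, L428 10.8-fold and L1236 10.3-fold lower (adjusted p = 0.000254, 0.000651 and 0.000656). Against SU-DHL4, the lowest B-cell line, KM-H2 was lower (-1.56, adjusted p = 0.0404), and L428 (-1.04, adjusted p = 0.176) and L1236 (-0.97, adjusted p = 0.193) did not pass.

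**Figure D3:**
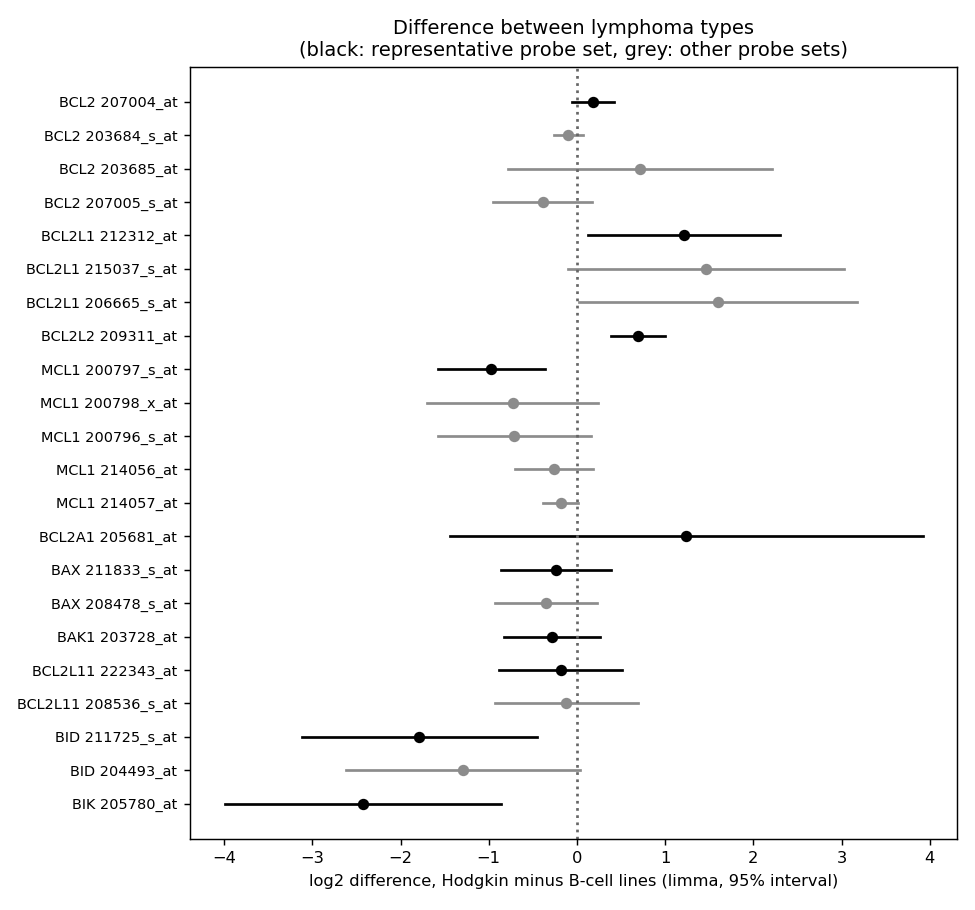
Log2 difference of Hodgkin minus B-cell lines (x axis) for the 22 probe sets (rows), with the 95% interval of the limma fit to 3 line means against 3. Black marks the representative probe set of a gene and grey the others. The intervals of BCL2L1, BCL2L2, MCL1, BID and BIK exclude 0 for the representative probe set before adjustment, and the BCL2A1 interval is the widest, -1.44 to 3.92.

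BCL2A1 averaged 7.22 ± 1.96 in Hodgkin and 5.98 ± 0.82 in B-cell lines (difference 1.24 ± 1.06, adjusted p = 0.653). That mean rests on KM-H2, without which the difference was 0.25, and without L1236 it was 2.21. The pore formers were close to even between types. BAX averaged 8.16 ± 0.03 against 8.40 ± 0.48 (difference -0.24, 95% interval -0.86 to 0.38), and BAK1 7.85 ± 0.19 against 8.13 ± 0.38 (-0.28, interval -0.83 to 0.26). With SU-DHL6 replicate 2 left out, the differences were -0.35 for BAX and -0.24 for BAK1. The 3 Hodgkin line means were within 0.06 of each other for BAX on the representative probe set, whose duplicates lay 0.36 to 0.41 apart there. On the second BAX probe set, 208478_s_at, the Hodgkin line means spanned 0.32. It differed by -0.35 between types (adjusted p = 0.56), and by -0.41 without SU-DHL6 replicate 2. Among B-cell lines, Namalwa lay below the SU-DHL lines for BAX (-0.83 ± 0.21, adjusted p = 0.0228) and BAK1 (-0.60 ± 0.11, adjusted p = 0.00457), both under the size limit. Line and dataset cannot be told apart in this comparison of Namalwa. In the published dataset alone, with Namalwa as the B-cell line, BAX was 0.31 higher and BAK1 0.12 higher in the Hodgkin lines, so the sign of these differences rests on the SU-DHL lines. BCL2L11 differed by -0.18 between types (interval -0.88 to 0.52), and SU-DHL4 and L1236 had the highest levels, 6.95 and 6.85. L1236 and SU-DHL6 differed as neighbours for BCL2L11 (0.46 ± 0.15, adjusted p = 0.048).

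BCL2 itself gave no single answer, because its 4 probe sets ordered the lines differently. The representative 207004_at and 203684_s_at were flat, with line means spanning 0.42 and 0.18, and duplicate arrays up to 0.55 and 0.56 apart. On 203685_at, L1236 read 7.37 and 7.58, KM-H2 7.05 and 6.31, and L428 6.03 and 5.65, against 7.16 and 6.70 in Namalwa, 5.41 and 5.63 in SU-DHL4, and 5.21 and 5.56 in SU-DHL6. The SU-DHL lines were thus below the arrays' lower quartiles on this probe set, and Namalwa was higher than they were (1.48 ± 0.22, adjusted p = 0.00142). L1236 was higher than the other Hodgkin lines on it (1.22 ± 0.22, adjusted p = 0.00254) and L428 lower (-1.24 ± 0.22, adjusted p = 0.00241). On 207005_s_at the order turned round. There SU-DHL4 read 6.66 and 6.78 and SU-DHL6 6.46 and 6.47, above the highest array of the other lines, 6.18 in L428. Pearson's r between these 2 probe sets over the 6 line means was -0.806, as a description. The SU-DHL lines were also the newly generated arrays, so line and dataset cannot be told apart here. Neither probe set passed the test between types (0.72, adjusted p = 0.642, and -0.39, adjusted p = 0.506). With SU-DHL6 replicate 2 left out, these differences were 0.78 and -0.38. The representative 207004_at differed by 0.18 between types (adjusted p = 0.466), and by 0.094 without that array (adjusted p = 0.834). For 203684_s_at the difference was -0.097 (adjusted p = 0.565), and -0.027 without that array.

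**Figure D4:**
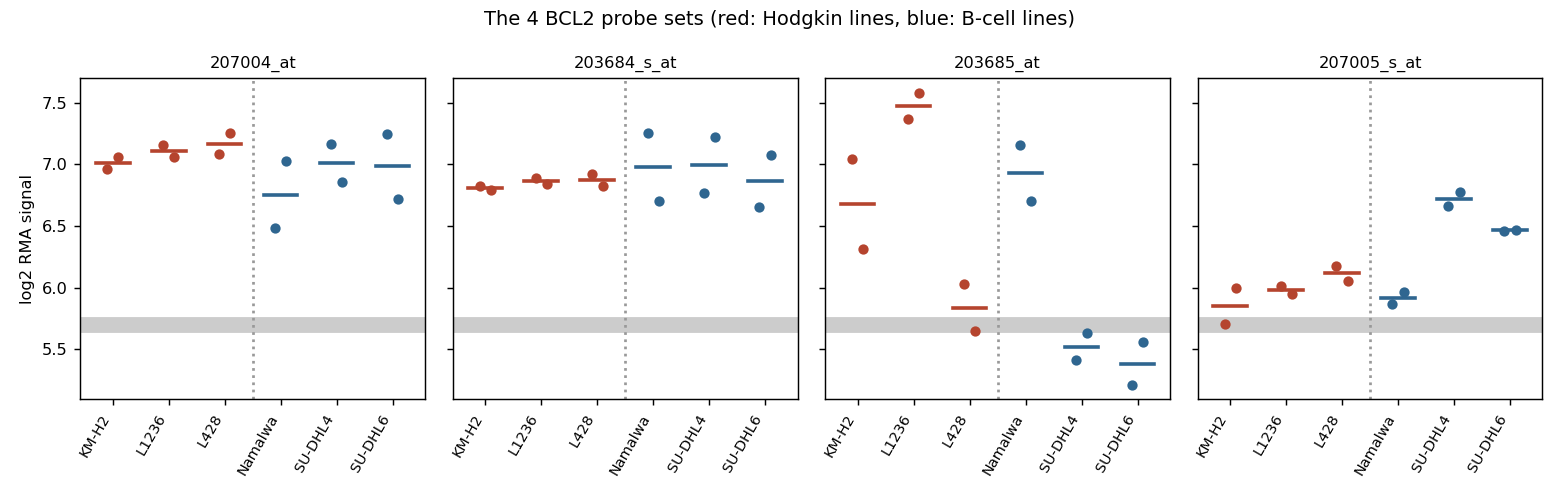
Log2 RMA signal (y axis) of the 4 BCL2 probe sets on the 2 arrays of each line, with line means as bars, Hodgkin lines in red and B-cell lines in blue. The grey band is the range of lower quartiles, 5.64 to 5.75. SU-DHL4 and SU-DHL6 are the lowest lines on 203685_at and the highest on 207005_s_at.

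Over the 10 representative probe sets, neighbouring lines in the order of levels differed in 8 of 50 pairs, where 23.7% of all probe sets differed between a pair of lines, summed over all 15 pairs, neighbours or not (13.9% to 29.8% per pair). The line means of the 10 genes spanned a median of 1.27, beside 0.60 over all genes. BIK (3.95), BCL2A1 (3.91), BID (2.86) and BCL2L1 (2.32) each had a wider span than at least 93.4% of all probe sets, and BCL2 (0.42) than 43.3%.

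The authors' deposited table gave 8 of the 22 probe sets an adjusted p under 0.05, where 13.4% of all its rows reached that level. Of these, 4 were higher in Hodgkin lines, namely the 3 of BCL2L1 and that of BCL2L2, and 4 lower, namely 2 of BID, BIK and the representative of MCL1. In the authors' deposited table BCL2L2 had an adjusted p of 0.000369 and BIK of 0.00695. P-values from a limma fit to the 12 arrays as independent samples ranked all probe sets in the order of the deposited p-values (Spearman's rho = 1 over probe sets). That fit counts duplicate arrays of a line as separate samples of a type. The deposited log2 differences of BCL2L2 and BIK, 0.69 and -2.43 in the authors' deposited table, equal those given here.

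Other genes of the pathway were counted from lists written by role, beside the 1.23% of all probe sets that passed the test between types and the 14.4% with an unadjusted p under 0.05. Of 13 measured further BCL2 relatives, 0 passed the test between types and 1 had an unadjusted p under 0.05 (median -0.02). The largest differences were those of BAG1, a chaperone partner that binds BCL2 (-1.15, adjusted p = 0.308), BNIP3 (-0.28), PMAIP1, which encodes the MCL1-binding NOXA (0.25), and HRK (-0.24). Of 14 apoptosome and caspase genes, 0 passed and 5 had an unadjusted p under 0.05 (median -0.10). The executioner CASP6 differed by 1.29 (adjusted p = 0.176), CYCS, which encodes cytochrome c, by -0.72 (adjusted p = 0.236), the initiator CASP8 by 0.51 and the DNA nuclease DFFB by -0.46. Of 6 genes of IAP proteins, which block caspases, and their antagonists, 0 passed and 3 had an unadjusted p under 0.05 (median 0.23). HTRA2 differed by 0.67, BIRC5 by -0.31, XAF1 by 0.30 and XIAP by 0.25.

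In the death receptor arm, 1 of 7 genes was higher in the Hodgkin lines and 0 lower, and 3 had an unadjusted p under 0.05 (median 0.71). This was FAS, the receptor whose signal reaches mitochondria through BID, at 10.19 ± 0.30 against 6.31 ± 0.77 (3.88 ± 0.42, adjusted p = 0.029). CFLAR, which encodes the caspase-8 inhibitor FLIP, had 10.60 ± 0.996 against 7.81 ± 0.78 (2.79 ± 0.63, adjusted p = 0.144), with every Hodgkin line above every B-cell line. TRAF1, an adaptor induced by NF-kB, differed by 1.33 (adjusted p = 0.591) and TNFRSF10B, a TRAIL receptor, by 0.71 (adjusted p = 0.653). Of 6 genes on the list written for MCL1 turnover, 0 passed and 0 had an unadjusted p under 0.05 (median -0.17). Whether each of them acts on MCL1 was not tested. TRIB1 differed by -0.92, the kinase GSK3B by -0.45, the ubiquitin ligase HUWE1 by -0.18 and the ubiquitin ligase subunit BTRC by 0.18.

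For each member whose line means spanned at least 2, the 3 genes most like it were taken by Pearson's r over the 6 line means, among 1168 genes of at least that span. With 6 points and that many candidates high values arise readily, and they are given as a description. BCL2L1 was most like PRIM1 (r = 0.987), REPS2 (0.98) and DYNC2LI1 (0.978). BCL2A1 was most like DPYD (0.995), STOM (0.977) and FTH1P5 (0.959), and the probe sets of STOM and FTH1P5 carry the suffix for possible cross-hybridisation. BID was most like ORAI2 (0.983), ZNF586 (0.962) and PPP2R5C (0.961). BIK was most like BMP7 (0.987), RUBCNL (0.985) and CCND3 (0.968). Among the members, r over the line means was highest for BCL2L1 with BCL2L2 (0.892) and lowest for BCL2A1 with BCL2L11 (-0.87).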

How the data were processed

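The authors' deposited value table holds log2 signals made with RMA, a method that corrects background, equalises the arrays' distributions and summarises probes into probe sets, per the design text. The submitters' processing notes name R 2.10.1, and give no settings. The authors' deposited comparison table holds log2 differences with raw and adjusted p-values, per the file headers. Of 22283 rows, 68 Affymetrix controls were left out and 22215 probe sets tested. The platform annotation gave 1 symbol for 19065, several for 1043 and none for 2107, and 19053 symbols were matched to RefSeq by Entrez identifier, with 0 changed. A gene was represented by its probe set with the highest mean. Fits used limma 3.58.1 in R 4.3.3.

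The types were compared by limma on 6 line means, and lines by limma on 12 arrays with a coefficient per line, two-sided, with Benjamini-Hochberg adjustment over all probe sets. Named genes are the 10 members, the list genes past the threshold and the 4 with the largest differences per list, and the 3 genes most like each wide-spanning member. Members and lists were chosen with earlier results of these data known. On simulated data for the type comparison (22215 probe sets), 78% of changes of 2 and 96% of changes of 4 on the log2 scale were recovered, with 8 false calls. The changes were placed on probe sets drawn at random from all of them. The line means of the members spanned more, a median of 1.27 beside 0.60 over all genes. These shares therefore need not hold for the members. Changes under 2, the size of all member differences between types except that of BIK, were not simulated. The number of arrays limits the precision. Alternatives are given in the closing section.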

Additional observations from a re-analysis of the deposited data

How the results depend on the processing

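Over the single probe sets, 926 of 969 repeats under another setting kept the direction and side of the threshold, 16 passed it newly, 9 lost it and 18 changed sign. The count of members past the threshold between types stayed at 0 without any 1 line or array, and under the filter on dim probe sets, the floor, the trend, both rescalings, gene means, the dataset as a block and the published dataset alone. It was 4 with 12 arrays and the line as a random block (BCL2L2, MCL1, BID and BIK), 4 with the replicate block added, and 5 with 12 arrays as independent samples, chosen after seeing the data, where BCL2L1 joined. Arrays share only a replicate number: deviations from line means correlated at over 0.1 in 4 of 15 pairs of lines. With the replicate block the adjusted p was 0.00538 for BCL2L2, 0.0158 for MCL1, 0.028 for BID and 0.0496 for BIK. The numbers of probe sets higher and lower were 619 and 986 with the random block, 509 and 870 with the replicate block, 1166 and 1830 with independent arrays, 4 and 41 with the dataset as a block, and 1 and 45 in the published dataset alone. Leaving out 1 line or array gave 7 to 147 higher and 35 to 176 lower, the fewest in each direction without SU-DHL4.

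Signs turned with the dataset as a block and in the published dataset alone, which both set the Hodgkin lines against Namalwa: -0.27 for BCL2 203685_at, 0.066 for BCL2 207005_s_at, 0.31 for BAX 211833_s_at, 0.13 for BAX 208478_s_at, 0.12 for BAK1, 0.028 for BCL2L11 222343_at and 0.21 for BCL2L11 208536_s_at. For BCL2L11 the signs also turned without KM-H2 or SU-DHL4, with ranges over the lines and arrays left out of -0.42 to 0.0074 for 222343_at and -0.37 to 0.15 for 208536_s_at. None of these passed the threshold, and the cause was not tested. In the line comparisons, the number of genes called without any 1 array ran from 1 to 3 for Namalwa and from 0 to 2 for SU-DHL4, and was 2 for SU-DHL4 by gene means. The replicate block changed no call between lines, nor the 8 neighbouring pairs that differed.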

Other observations

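The representative BAX probe set read higher on replicate 1 than on replicate 2 in 6 of 6 lines, by 0.03 to 0.68 in log2 signal, which 1.35% of all probe sets also did.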
